A study of Mus musculus with 13 samples.

Results

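Brown adipocytes burn fat to make heat, and 10 genes named for that cell type were followed through 13 mouse aortas: Ucp1, Cidea, Dio2, Ppargc1a, Prdm16, Elovl3, Otop1, Zic1, Ebf2 and Fabp3. They were picked by gene name, without a threshold on any value, from the 54532 genes of the deposited count table. All mice were ApoE-/- (ApoE knockout), were 10 weeks old when modelling began and received angiotensin II (AngII) at 1000 ng/kg/min for 28 days from a pump under the skin, a treatment that produces abdominal aortic aneurysms in this strain. Each mouse was also given 5 weekly tail vein injections of adenovirus, either the empty vector (Ad-sham, n = 6) or a vector with mouse Fam3a carrying a FLAG tag and an mCherry reporter under the EF1A promoter, which is active in most cell types (Ad-FAM3A, n = 7). The question of the design was how Fam3a delivery changes aortic gene expression. Each library was made from 1 aorta, and the study's methods say that whole aortas were taken under a stereomicroscope, without saying how much of the surrounding fat came with them. The sex of these mice is not given in the sources used here.

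The fat around the mouse thoracic aorta is largely brown in character, whereas that around the abdominal aorta is closer to white fat. In a brown adipocyte, noradrenaline from sympathetic nerves acts on beta-adrenergic receptors, raises cAMP, releases fatty acids from lipid droplets and induces thermogenic genes, and uncoupling protein 1 (Ucp1) in the inner mitochondrial membrane then lets protons return without making ATP, so that the energy leaves as heat. Around this channel work enzymes and carriers that supply fatty acids and active thyroid hormone, and transcription factors that set up and keep brown adipocyte identity.

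The counts on genes summed to 15588507 to 19797407 per Ad-sham aorta and to 14481179 to 16576977 per Ad-FAM3A aorta. A count of 3, the most that a count of 0 allows, was worth 0.140 to 0.221 CPM (counts scaled to TMM library sizes), and this covers counting error only. Transcripts of the delivered gene were no higher after Ad-FAM3A: Fam3a ranged from 17.9 to 30.3 CPM in Ad-sham and from 18.5 to 29.8 CPM in Ad-FAM3A aortas. Every direction below therefore refers to the labels of the groups, and names such as Ad-FAM3A2 are the labels of single aortas. Smooth muscle genes were abundant in every aorta, with a sum over 5 markers of 2848 to 12575 CPM in Ad-sham and of 2157 to 17782 CPM in Ad-FAM3A aortas. Transcripts of fat cells were present in every aorta too, since 6 genes shared by white and brown adipocytes (Adipoq, Plin1, Cidec, Lipe, Plin4 and Acvr1c) summed to 1728 to 4148 CPM in Ad-sham and to 1086 to 2606 CPM in Ad-FAM3A aortas. The mean log2 CPM of these 6 genes, none of which is among the 10, is used below as an adipocyte score. In such bulk tissue, fewer cells of a type and less RNA per cell cannot be told apart.

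The promoters of 7 of the 10 genes were found in the RefSeq table of GRCm38.p6, and 4 are printed because their genes span the range of patterns in these aortas, Otop1 being the most like Ucp1 of the set and Dio2 and Ppargc1a among the least like it. Each line gives the 250 bases before the RefSeq start (249 for Ppargc1a, where 1 exon base was left out), 5' to 3' on the strand of the gene, and capitals mark matches to the motifs named next. The windows are chr8:83290098-83290347 (plus strand), chr5:38277154-38277403 (plus strand, inside the longer gene model of the count table), chr12:90739039-90739288 (minus strand) and chr5:51567727-51567975 (minus strand).
Ucp1: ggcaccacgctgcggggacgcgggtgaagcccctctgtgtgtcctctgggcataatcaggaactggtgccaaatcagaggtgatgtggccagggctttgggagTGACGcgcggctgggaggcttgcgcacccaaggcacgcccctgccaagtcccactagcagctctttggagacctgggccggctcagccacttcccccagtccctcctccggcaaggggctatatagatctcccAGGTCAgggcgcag
Otop1: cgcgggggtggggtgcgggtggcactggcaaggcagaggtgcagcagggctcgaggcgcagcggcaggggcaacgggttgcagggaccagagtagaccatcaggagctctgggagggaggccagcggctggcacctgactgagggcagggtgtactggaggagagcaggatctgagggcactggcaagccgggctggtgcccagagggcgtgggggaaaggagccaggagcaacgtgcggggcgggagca
Dio2: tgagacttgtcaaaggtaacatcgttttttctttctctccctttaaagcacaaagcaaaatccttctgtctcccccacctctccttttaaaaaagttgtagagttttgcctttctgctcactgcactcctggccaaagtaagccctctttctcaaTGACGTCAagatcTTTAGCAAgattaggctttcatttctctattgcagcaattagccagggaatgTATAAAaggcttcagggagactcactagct
Ppargc1a: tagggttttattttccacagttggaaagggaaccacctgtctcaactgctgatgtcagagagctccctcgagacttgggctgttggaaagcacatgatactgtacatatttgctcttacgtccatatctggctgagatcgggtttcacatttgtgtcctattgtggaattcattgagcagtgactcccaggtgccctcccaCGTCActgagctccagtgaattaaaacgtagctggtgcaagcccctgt

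The motifs were searched on both strands in the 250 bases of all 32851 RefSeq promoters. The full cAMP response element TGACGTCA, bound by CREB-type factors, was in 1.55% of all promoters and, among the 7, in that of Dio2, at position -95 from the RefSeq start. Its shorter core TGACG, which the full element contains on each strand, was in 17.8% of all promoters, and occurred in those of Ucp1 (-147), Ppargc1a (-49, on the other strand), Fabp3 (-149) and Dio2. AGGTCA, the half-site of nuclear receptors such as those for thyroid hormone and retinoids, was in 14% of promoters and in that of Ucp1, at -14. Dio2 also held TATAAA at -30 (12.4% of promoters) and the C/EBP letters TTGCNNAA, on the other strand, at -82 (9.56%). None of the 7 held a direct repeat of AGGTCA with any 1 base between the copies (0.0335% of promoters) or the EBF letters TCCC and GGGA with any 2 bases between them (0.779%), and the windows of Otop1, Prdm16 and Zic1 held no match to any motif searched. The window of Otop1 was the richest in G and C of the 4 printed, at 70%, against 64.8% for Ucp1, 48% for Ppargc1a and 41.6% for Dio2. These matches are descriptions of letters, and the enhancer of Ucp1 lies farther upstream than the window reaches.

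Genes were compared per kilobase of the deposited gene length. That length is a single value per gene, also for Prdm16 and Ppargc1a, which have 13 and 5 transcripts in GENCODE vM21. Ucp1 had the highest level of the 10 genes, 487 ± 360 CPM per kb (SD, n = 13 aortas), followed by Cidea at 346 ± 258 CPM per kb. Fabp3 came next, at 57.7 ± 54.5 CPM per kb. Otop1 (18.9 ± 12.6), Dio2 (18.2 ± 9.76) and Elovl3 (9.29 ± 9.52 CPM per kb) were intermediate. The transcriptional regulators were lowest, with 6.14 ± 3.16 CPM per kb for Prdm16, 5.29 ± 1.64 for Ebf2 and 2.64 ± 0.861 for Ppargc1a. The ranges of all neighbours in this order overlapped. Within single aortas, Ucp1 was above Cidea in 10 of 13, Cidea above Fabp3 in 13, Fabp3 above Otop1 in 12, Dio2 above Elovl3 in 12 and Ebf2 above Ppargc1a in 13. The order was not held in Otop1 against Dio2 (higher in 6 of 13 aortas), Elovl3 against Prdm16 (7 of 13) or Prdm16 against Ebf2 (8 of 13). Zic1, a factor found in classical brown but not in most other adipocytes, had a count of 0 in 9 aortas and of 1 to 3 in the other 4, at most 0.188 CPM. It did not rise above the level that a count of 0 allows and was left out of the tests, so 9 of the 10 genes were tested among 15811.

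Comparing the groups, 7 of the 9 tested genes were lower in the Ad-FAM3A group, with a median log2 fold change of -0.50, against 0.0032 over all 15811 genes, of which 49.6% were lower. None of the 9 passed an adjusted p under 0.05 in edgeR's quasi-likelihood F test (p adjusted by Benjamini-Hochberg over all genes tested), nor did any of the 15811 genes (0%). At an unadjusted p under 0.05, Ucp1, Otop1, Elovl3 and Ebf2 were lower, 4 of the 9, where 2.93% of all genes tested were lower and 5.91% differed in either direction at that level. Ucp1, Otop1 and Elovl3 had a log2 fold change under -1, 3 of the 9, where 1.21% of all genes did. For none of the 9 did the 6 and the 7 aortas fall into separate ranges, as they did for 0.0949% of genes. The adipocyte score was 8.45 ± 0.57 (SD, n = 6) in Ad-sham and 7.87 ± 0.40 (SD, n = 7) in Ad-FAM3A aortas, a difference of -0.58 on the log2 scale (two-sided exact permutation test over 1716 splits, p = 0.0594). With the score as a covariate, 0 of the 9 were lower at an unadjusted p under 0.05, where 2.7% of all genes passed in either direction.

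**Figure D1:**
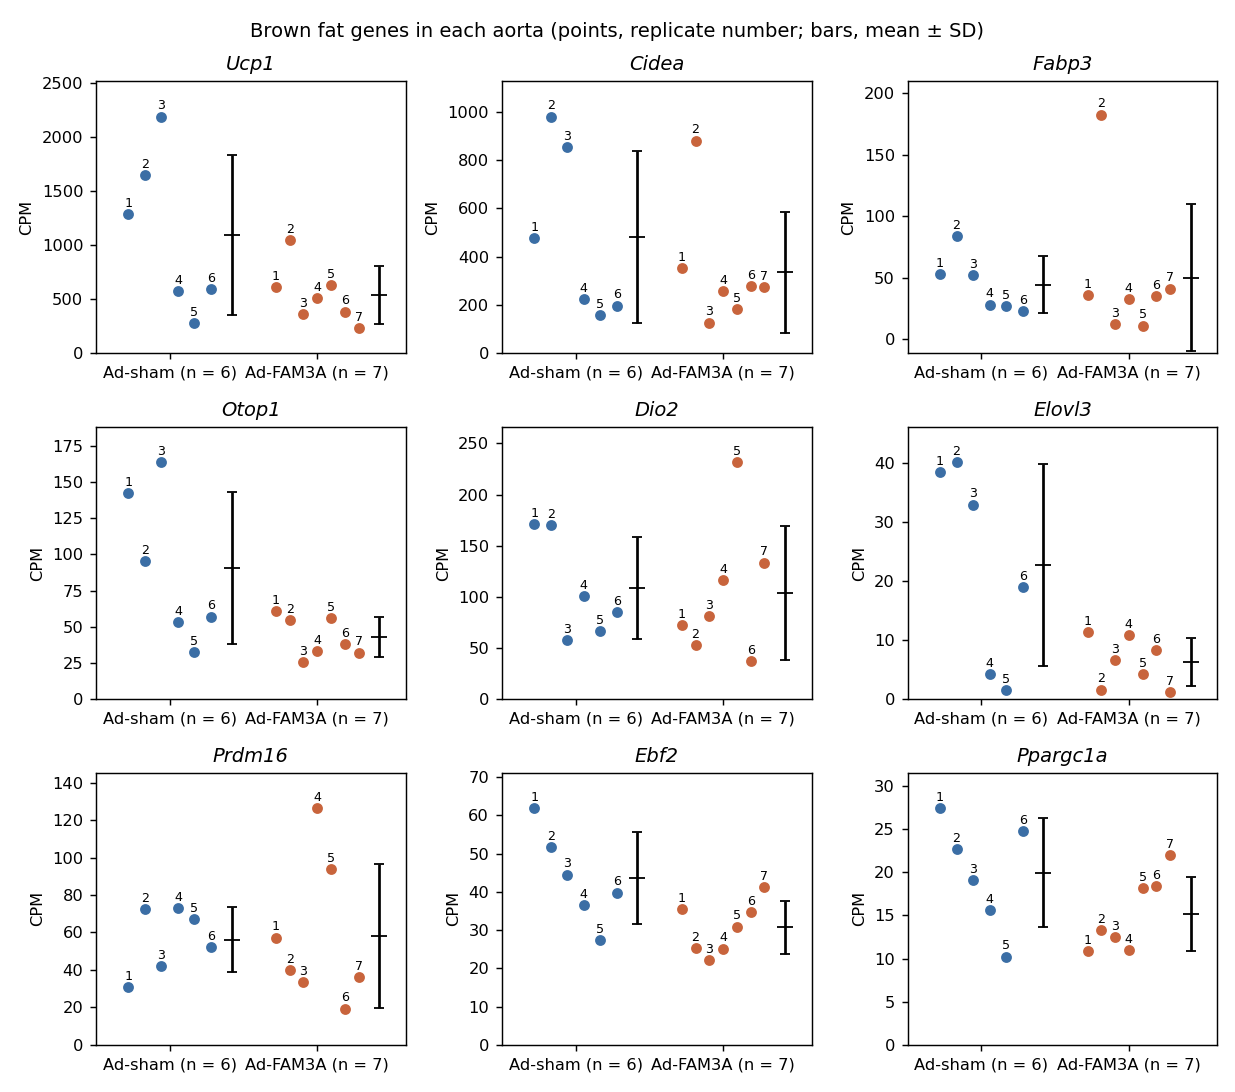
CPM (y axis) of the 9 tested genes in each aorta, with Ad-sham in blue and Ad-FAM3A in orange, replicate numbers beside the points and bars for mean ± SD. Ad-sham1, Ad-sham2 and Ad-sham3 stood highest for Ucp1 and Elovl3, and Ad-FAM3A2 stood far above the rest of its group for Cidea and Fabp3.

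Ucp1 (ENSMUSG00000031710, chromosome 8, 83290352 to 83298452, plus strand), the proton channel itself, had 1286, 1650 and 2193 CPM in Ad-sham1, Ad-sham2 and Ad-sham3, and 578, 279 and 594 CPM in Ad-sham4, Ad-sham5 and Ad-sham6. In the Ad-FAM3A aortas it had a lowest value of 230 CPM, a median of 513 CPM and a highest value of 1049 CPM. The first 3 Ad-sham aortas thus lay above all 10 others, while the other 3 lay within the range of the Ad-FAM3A group, and 6 of the 7 Ad-FAM3A aortas were below the Ad-sham median of 939.9 CPM. Ucp1 had a log2 fold change of -1.02 ± 0.45 (SE, edgeR unadjusted p = 0.039, adjusted p = 0.810), and a two-sided exact permutation test on log2 CPM gave p = 0.128. Without Ad-sham3 the log2 fold change was -0.70, and with the adipocyte score as a covariate it was -0.03 (standard error 0.44).

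Otop1 (ENSMUSG00000051596, chromosome 5, 38275972 to 38304217, plus strand), which encodes a proton channel of the otopetrin family, had the pattern most like that of Ucp1 among the 10. Its level was 142, 95.1 and 164 CPM in Ad-sham1 to Ad-sham3, and 53.1, 32.7 and 57.1 CPM in Ad-sham4 to Ad-sham6. The 7 aortas labelled Ad-FAM3A ran from 25.3 CPM through a median of 37.97 to 61.0 CPM, all below the Ad-sham median of 76.1 CPM, and the groups overlapped in the lower Ad-sham aortas. Otop1 had a log2 fold change of -1.08 (standard error 0.35, edgeR unadjusted p = 0.008, adjusted p = 0.810), with p = 0.051 in the two-sided exact permutation test. With the score as a covariate it was -0.32 (standard error 0.32).

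Elovl3, an elongase that makes very long-chain fatty acids and is strongly cold-inducible in brown fat, varied most, with a 33.0-fold span between aortas. It lies on chromosome 19 (ENSMUSG00000038754, 46131897 to 46135307, plus strand) and had 38.4, 40.1 and 32.9 CPM in Ad-sham1 to Ad-sham3, then 4.30, 1.54 and 19.02 CPM in Ad-sham4 to Ad-sham6. In the Ad-FAM3A aortas, Elovl3 had a lowest value of 1.22, a median of 6.63 and a highest value of 11.4 CPM. All 7 were below the Ad-sham median of 26.0 CPM, but Ad-sham4 and Ad-sham5 were within their range. For Elovl3 the log2 fold change was -1.85 ± 0.69 (SE, edgeR unadjusted p = 0.018, adjusted p = 0.810), the exact permutation test gave p = 0.121, and with the score as a covariate the value was -0.79 (standard error 0.81).

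Cidea, a lipid droplet protein that in brown adipocytes accompanies Ucp1, lies on chromosome 18 (ENSMUSG00000024526, 67343564 to 67367794, plus strand). Its level was 477, 980 and 853 CPM in Ad-sham1 to Ad-sham3 and 225, 157 and 198 CPM in Ad-sham4 to Ad-sham6. In 6 of the 7 aortas labelled Ad-FAM3A it lay between 127 and 352 CPM, and in the remaining one, Ad-FAM3A2, it was 881 CPM, close to the highest Ad-sham values. Between groups the log2 fold change of Cidea was -0.52 (standard error 0.51, edgeR adjusted p = 0.850), with p = 0.469 in the exact permutation test. Without Ad-FAM3A2 it was -0.96, without Ad-sham2 it was -0.18, and with the score as a covariate it turned to 0.75 (standard error 0.38, unadjusted p = 0.070).

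Fabp3, a fatty acid carrier of heart, muscle and brown fat, lies on chromosome 4 (ENSMUSG00000028773, 130308595 to 130315463, plus strand). It had 53.0, 83.6, 51.9, 28.1, 27.0 and 22.9 CPM in Ad-sham1 to Ad-sham6. Among the Ad-FAM3A aortas it ran from 11.1 to 41.2 CPM in 6, and reached 183 CPM in Ad-FAM3A2, the highest of all 13. Its log2 fold change of 0.17 ± 0.58 (SE, edgeR adjusted p = 0.952) was -0.65 without Ad-FAM3A2, -0.26 with limma-voom and -0.31 with the replicate block, so that its direction was not settled. Exons of Fabp3 overlap those of Zcchc17 and Gm10570 on the other strand, and as the sources used here do not say whether strand was used in counting, their reads cannot be told apart. Zcchc17 had 289 to 572 counts per aorta, the highest in Ad-FAM3A2, where Fabp3 had 2969 counts.

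Dio2, the deiodinase that converts thyroxine into active thyroid hormone inside the cell, lies on chromosome 12 (ENSMUSG00000007682, 90724552 to 90738438, minus strand). It had 171, 170, 58.1, 101, 66.3 and 85.2 CPM in Ad-sham1 to Ad-sham6, so that Ad-sham3, highest for Ucp1, was lowest of its group for Dio2. In the Ad-FAM3A aortas it ran from 36.9 CPM (Ad-FAM3A6) through a median of 80.9 to 232 CPM in Ad-FAM3A5, the highest of all 13. Dio2 had a log2 fold change of -0.07 ± 0.40 (SE, edgeR adjusted p = 0.971), whose sign changed when single aortas were left out, with values from -0.40 to 0.10. Gm26512, which overlaps a Dio2 exon on the other strand, had at most 22 counts in any aorta.

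Among the regulators, Ebf2, a factor that marks brown and beige adipocyte precursors, lies on chromosome 14 (ENSMUSG00000022053, 67233292 to 67430918, plus strand). It had 61.9, 51.7, 44.5, 36.5, 27.3 and 39.8 CPM in Ad-sham1 to Ad-sham6, against a lowest value of 22.2, a median of 30.9 and a highest of 41.3 CPM in the Ad-FAM3A aortas. All 7 were below the Ad-sham median of 42.1 CPM and 3 of them below the lowest Ad-sham aorta. The log2 fold change of Ebf2 was -0.50 (standard error 0.20, edgeR unadjusted p = 0.022, adjusted p = 0.810), with an exact permutation p = 0.037 before any correction for the number of genes. With the score as a covariate it was -0.24 (standard error 0.21).

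Ppargc1a, the coactivator that drives mitochondrial biogenesis and Ucp1 transcription, lies on chromosome 5 (ENSMUSG00000029167, 51454250 to 51567726, minus strand). Its level was 27.4, 22.7, 19.1, 15.6, 10.2 and 24.7 CPM in Ad-sham1 to Ad-sham6, and it ran from 10.9 CPM through a median of 13.3 to 22.0 CPM in the Ad-FAM3A aortas. With 6 of 7 below the Ad-sham median of 20.9 CPM, the groups still overlapped over most of their ranges. The log2 fold change of Ppargc1a was -0.39 (standard error 0.24, edgeR unadjusted p = 0.124, adjusted p = 0.812), and of the genes lower in Ad-FAM3A it was the one least moved by the score, with -0.34 (standard error 0.31) under the covariate, apart from Dio2, whose value was near 0 in both fits.

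Prdm16, a zinc finger protein that promotes brown over muscle or white identity, lies on chromosome 4 (ENSMUSG00000039410, 154316125 to 154636873, minus strand). It had 30.7, 72.4, 42.2, 72.9, 67.1 and 52.0 CPM in Ad-sham1 to Ad-sham6. In the Ad-FAM3A aortas it ran from 19.4 CPM in Ad-FAM3A6 through a median of 39.7 to 126 CPM in Ad-FAM3A4. Ad-sham1, among the highest aortas for Ucp1, was the lowest of its group for Prdm16. Ad-FAM3A4 and Ad-FAM3A5, highest for Prdm16, were also highest for the sum over 5 smooth muscle markers (17782 and 12660 CPM). Ad-FAM3A6 and Ad-sham1, lowest for Prdm16, were lowest for that sum (2157 and 2848 CPM). The part of smooth muscle in the values of Prdm16 was not tested. Prdm16 had a log2 fold change of 0.04 ± 0.38 (SE, edgeR adjusted p = 0.982), whose sign changed under limma-voom (-0.15), with the replicate number as a block (-0.065) and without single aortas (-0.26 to 0.20).

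**Figure D2:**
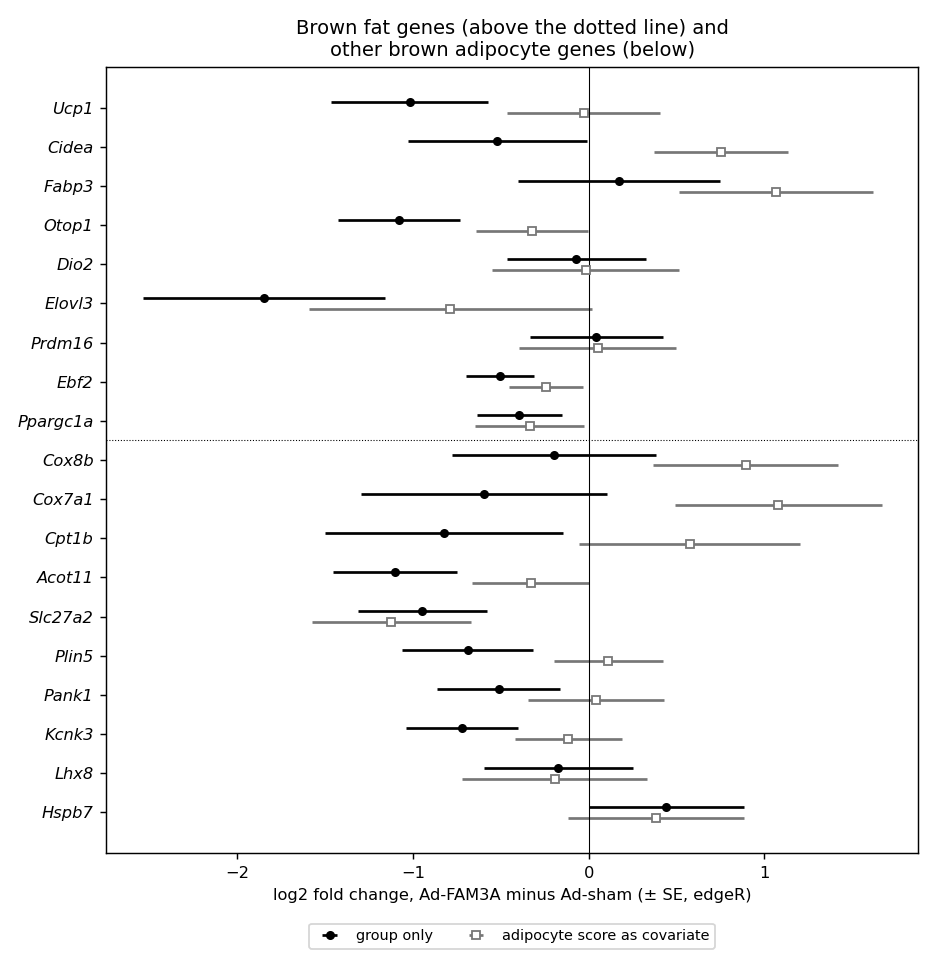
Log2 fold change (x axis, Ad-FAM3A minus Ad-sham, bars for standard errors from edgeR) of the 9 tested genes and of 10 other brown adipocyte genes, without (filled circles) and with (open squares) the adipocyte score as a covariate. Ucp1 moved from -1.02 to -0.03 and Otop1 from -1.08 to -0.32, while Cidea changed sign, from -0.52 to 0.75.

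How each gene varied with the amount of adipocyte transcripts was examined next, by the slope of its log2 expression on the adipocyte score with the group held in the model, where a slope of 1 means in proportion to the 6 score genes. The median slope of the 9 genes was 1.04, against -0.07 over all 15811 genes. Cidea passed the adjusted threshold and rose with the score, 1 of the 9, where 1.35% of all genes tested rose with it and 1.47% moved with it in either direction. Its slope was 1.82 (standard error 0.36, edgeR adjusted p = 0.037 with Benjamini-Hochberg), and it lost its call, with adjusted p of 0.051 to 0.124, without any of Ad-sham2 to Ad-sham6, Ad-FAM3A3 or Ad-FAM3A5, and with the replicate block (slope 1.40, adjusted p = 0.701). The slopes of Fabp3 (1.65, standard error 0.59), Elovl3 (1.32, 0.69), Ucp1 (1.27, 0.39) and Otop1 (1.04, 0.29) were near or above 1 and did not pass, with adjusted p of 0.180, 0.365, 0.113 and 0.087. Calls were gained for Ucp1 and Otop1 with DESeq2 (adjusted p = 0.018 and 0.017) and without the group term (0.018 and 0.0078), for Otop1 also with at least 10 counts in every aorta (0.042) and without Ad-FAM3A4 (0.045) or Ad-FAM3A5 (0.048), and for Fabp3 with DESeq2 (0.026), with Adipoq alone as the score (0.013) and without Ad-FAM3A2 (0.024). Those of Ebf2 (0.42, standard error 0.20), Ppargc1a (0.09, 0.29), Dio2 (0.07, 0.48) and Prdm16 (0.01, 0.44) were the smallest. Without Ad-sham2, Ad-sham3, Ad-sham4 or Ad-sham6, or with the replicate block, 0 of the 15811 genes passed, and this holds for every slope called below. Power for slopes was low: on simulated counts for these 13 aortas, 10 of 200 genes (5%) given a slope of 1 were recovered among the 15811 tested.

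**Figure D3:**
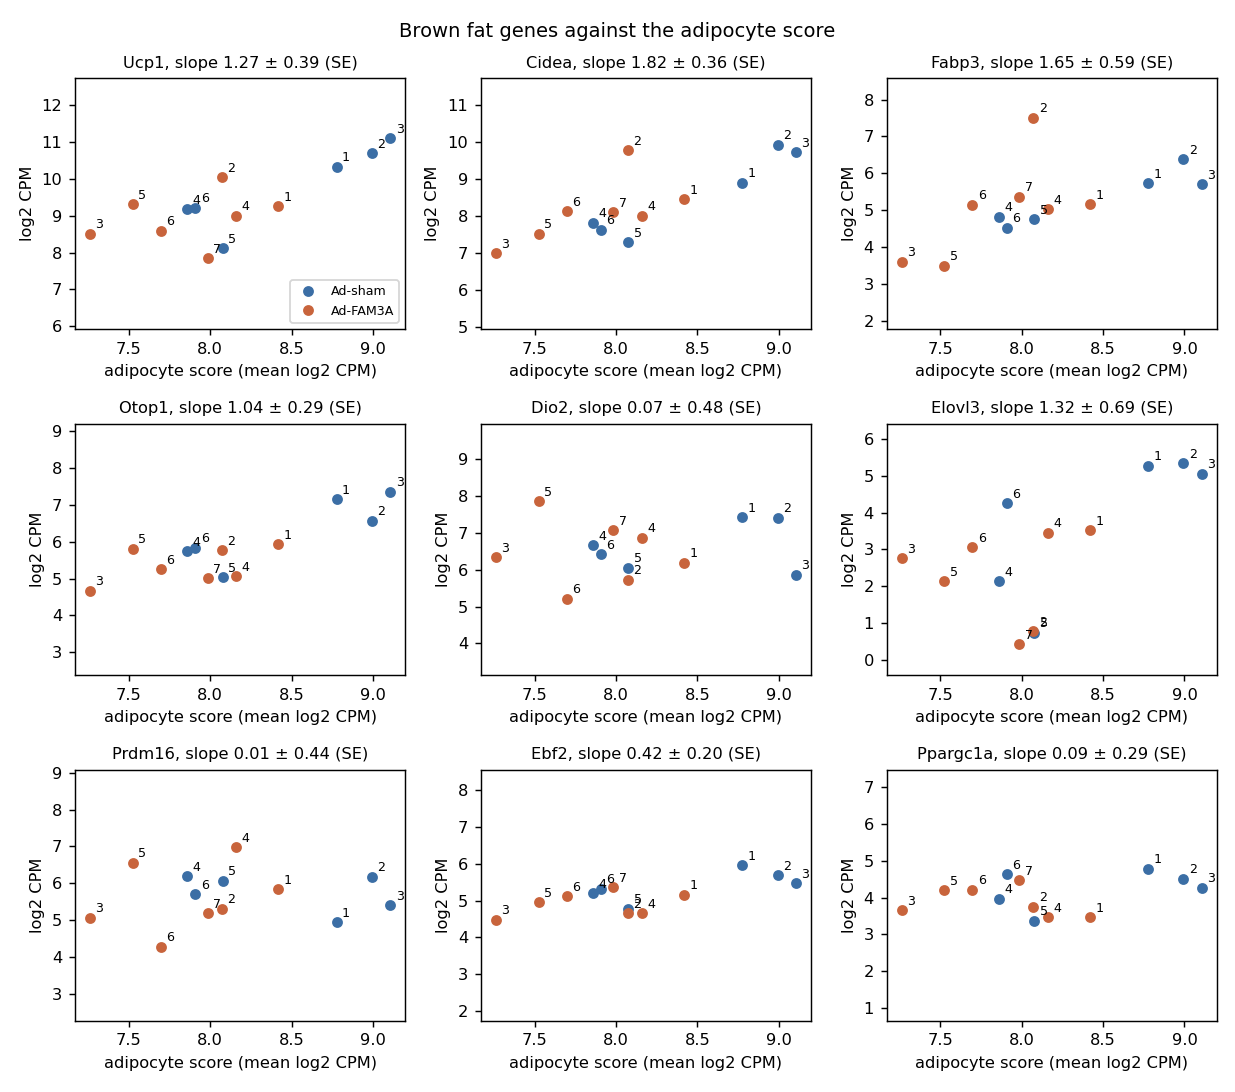
Log2 CPM (y axis) of each of the 9 tested genes against the adipocyte score (x axis, mean log2 CPM of 6 genes), with Ad-sham in blue, Ad-FAM3A in orange and replicate numbers beside the points. Every panel spans the same number of log2 units, and the slopes run from 1.82 for Cidea, the one that passed the adjusted threshold, to 0.01 for Prdm16.

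The score was highest in the 3 aortas with the most Ucp1, but the other aortas were ordered differently by it. It was 8.78, 8.99 and 9.11 in Ad-sham1 to Ad-sham3 and 7.86, 8.08 and 7.91 in Ad-sham4 to Ad-sham6, and in the Ad-FAM3A aortas it ran from 7.26 in Ad-FAM3A3 to 8.42 in Ad-FAM3A1. Ad-FAM3A5 had a score of 7.52 with 633 CPM of Ucp1, and Ad-sham5 a score of 8.08 with 279 CPM. After the score was subtracted, Ucp1 stood at 1.32 ± 0.67 (SD, n = 6) on the log2 scale in Ad-sham and at 1.06 ± 0.70 (SD, n = 7) in Ad-FAM3A aortas, a difference of -0.26 (two-sided exact permutation test, p = 0.508). The same difference was 0.17 for Cidea (exact permutation p = 0.676), -0.34 for Otop1 (p = 0.221), -0.91 for Elovl3 (p = 0.260), 0.41 for Dio2 (p = 0.450) and 0.09 for Ebf2 (p = 0.678). Prdm16 (0.43, exact permutation p = 0.395), Fabp3 (0.30, p = 0.651) and Ppargc1a (0.21, p = 0.547) also had positive values. Relative to the score, 6 of the 9 were thus higher in Ad-FAM3A aortas and 3 lower, none past an unadjusted p of 0.05. As the score itself was 0.58 lower in Ad-FAM3A aortas, the subtraction adds 0.58 to the difference of any gene. A gene equal in both groups would come out higher. Prdm16 and Dio2 were at -0.15 and -0.17 before it. The share over all genes was not computed. The sign of the difference relative to the score turned without Ad-FAM3A2 for Cidea (-0.074) and Fabp3 (-0.075). It also turned without Ad-sham5 for Cidea (-0.0092) and without Ad-sham3 for Ebf2 (-0.023). Subtracting the score narrowed the spread over the 13 aortas for Ucp1 (SD 0.98 to 0.67), Cidea (0.98 to 0.63), Otop1 (0.83 to 0.49), Elovl3 (1.71 to 1.44), Fabp3 (1.06 to 0.84) and Ebf2 (0.43 to 0.40) and widened it for Dio2 (0.76 to 0.89), Prdm16 (0.73 to 0.89) and Ppargc1a (0.48 to 0.61). In how far a different amount of fat on the aortas, or a different state of it, took part in the group differences was not tested.

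The likeness of each pattern to that of Ucp1 is given as Pearson's r of log2 CPM over the 13 aortas, a description without a test, since all points share libraries and the mixture of tissues in them. Otop1 had r = 0.91 with Ucp1 (Spearman's rho 0.92), rank 15 of 15811 genes counting Ucp1 itself, with 0.95 among the 6 Ad-sham and 0.74 among the 7 Ad-FAM3A aortas. Without the 2 aortas farthest from the median of Ucp1, r was 0.84. Cidea had r = 0.82 (rho 0.69), with 0.95 in Ad-sham and 0.61 in Ad-FAM3A, and 0.66 without the 2 farthest aortas. Elovl3 had r = 0.70 (rho 0.68), with 0.90 among Ad-sham but 0.06 among Ad-FAM3A aortas, so that its likeness rested on the Ad-sham aortas. Fabp3 and Ebf2 each had r = 0.52, and for Ebf2 it was 0.82 among Ad-sham and -0.43 among Ad-FAM3A aortas. Ppargc1a (0.38), Dio2 (0.13) and Prdm16 (0.05) were least like Ucp1, and for these as well the sign of r differed between the groups, with 0.67 in Ad-sham and -0.50 in Ad-FAM3A for Ppargc1a, 0.32 and -0.14 for Dio2, and -0.46 and 0.35 for Prdm16. The differences in r between the groups were not tested.

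Genes outside the set with a pattern very like that of Ucp1 included Mpc2 (r = 0.94), Pgp (0.94), Derl1 (0.94), Letm1 (0.93), Rmdn3 (0.92), Mrps27 (0.92), Taldo1 (0.92), Letmd1 (0.92) and Gpd1 (0.91), over 13 aortas. Mpc2 is a subunit of the mitochondrial pyruvate carrier, Letm1 an inner mitochondrial membrane protein, Mrps27 a protein of the mitochondrial ribosome, and Gpd1 the cytosolic glycerol-3-phosphate dehydrogenase.

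**Figure D4:**
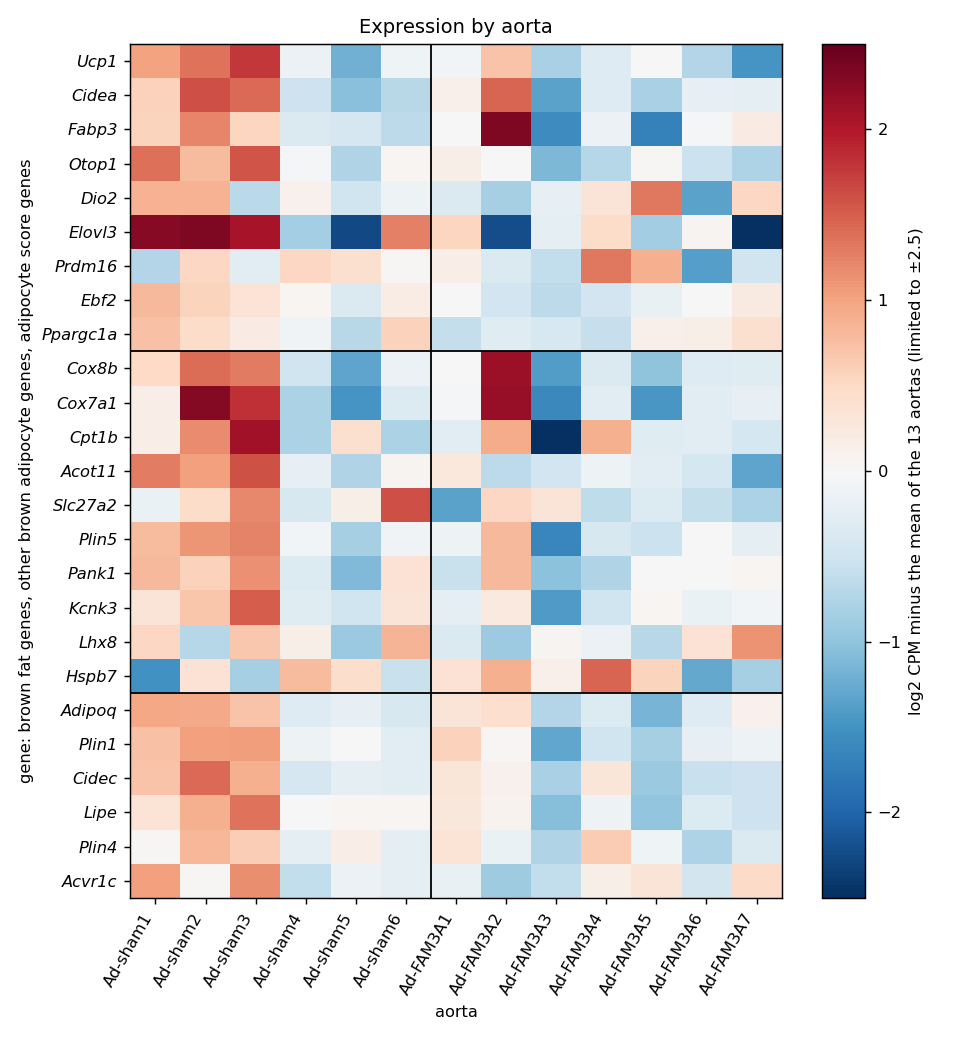
Log2 CPM minus the mean of the 13 aortas (colour, limited to ±2.5) for the 9 tested genes, 10 other brown adipocyte genes and the 6 score genes (rows), by aorta (columns). Ad-sham1, Ad-sham2 and Ad-sham3 are red in most rows, and Ad-FAM3A2 is red for Cidea, Fabp3, Cox8b and Cox7a1 but blue for Elovl3.

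Across the set, Ad-sham2 was among the 3 highest aortas for 8 of the 9 tested genes, Ad-sham1 for 7 and Ad-sham3 for 5. Ad-FAM3A5 was highest of the 13 for Dio2 and second for Prdm16 but lowest for Fabp3. Ad-FAM3A2 combined the genes in another way. Its Ucp1 of 1049 CPM was the highest of its group, its Cidea of 881 CPM was second of all 13, and its Fabp3 of 183 CPM was the highest, as were its 919 CPM of Cox8b, a cytochrome c oxidase subunit of brown fat and muscle. Cox7a1, another such subunit, had 154 CPM there, second to the 167 CPM of Ad-sham2. Elovl3, in contrast, was at 1.6 CPM in Ad-FAM3A2, and its adipocyte score of 8.07 was in the middle of the range. Since Fabp3, Cox8b and Cox7a1 are also expressed in striated muscle, markers of it were read in the same aorta. The 8 heart markers summed to 58.3 CPM in Ad-FAM3A2, within the 41.5 to 230 CPM of all aortas, with Tnnt2 at rank 3 of 13 (12.0 CPM), Myh6 at rank 4 (2.40 CPM) and Nppa at 0. The 9 skeletal muscle markers summed to 117 CPM, second to the 180 CPM of Ad-sham6. Ad-FAM3A2 was the highest of the 13 for Ckm (25.8 CPM), Pvalb (16.0 CPM), Tnnt3 (10.5 CPM) and Tnni2 (8.55 CPM) and second for Acta1 (48.9 CPM), while Myh1 was at 0 there. Ad-sham1, with the highest heart sum (230 CPM), was rank 1 of 13 for Ppargc1a and rank 3 for Fabp3. Ad-sham6, with the highest skeletal muscle sum, was rank 2 for Ppargc1a and rank 11 for Fabp3. The part of muscle in the values of Ad-FAM3A2, Ad-sham1 and Ad-sham6 was not tested.

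Other genes that mark brown adipocytes or act beside Ucp1 were mostly lower as well. Of 10 such genes, 9 had a negative log2 fold change (median -0.64) and 3 had an unadjusted p under 0.05, Acot11 (-1.10, standard error 0.35), a thioesterase, Slc27a2 (-0.95, 0.37), a fatty acid transporter, and Kcnk3 (-0.72, 0.32), a potassium channel. Over all genes tested, 49.6% were lower and 2.93% were lower at that level. The exception was Hspb7, at 0.44 (0.44), with a slope on the adipocyte score of -0.15 (0.51). Hspb7 was rank 1 of 13 in Ad-FAM3A4, with the highest smooth muscle sum (17782 CPM). It was rank 12 in Ad-FAM3A6 and rank 13 in Ad-sham1, with the lowest (2157 and 2848 CPM). Ad-sham2, at 12575 CPM, was rank 7. The part of smooth muscle in the values of Hspb7 was not tested. The median of the 10 with the score as a covariate was 0.08, whereas Slc27a2 stood at -1.12 (standard error 0.45, edgeR unadjusted p = 0.028) in that fit. None of the slopes of the 10 genes passed the adjusted threshold, although that of Cox7a1 was 2.38 (standard error 0.58, edgeR adjusted p = 0.059). The 6 score genes were all lower too (median -0.64), 3 at an unadjusted p under 0.05 (2.93% of all genes), with Lipe at -0.85 (standard error 0.29).

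Upstream of the set stand the genes of beta-adrenergic signaling and lipolysis. Of 13, 12 were lower (median -0.55), 7 of them at an unadjusted p under 0.05, where 49.6% of all genes were lower and 2.93% lower at that level, and Creb1, the cAMP-responsive factor, was higher (0.39, standard error 0.18). Adrb3, the receptor through which noradrenaline acts on adipocytes, had 255, 221, 306, 135, 163 and 122 CPM in Ad-sham1 to Ad-sham6 and 81.7 to 140 CPM in the Ad-FAM3A aortas. The groups overlapped between 122 and 140 CPM, where Ad-sham4, Ad-sham6 and 2 Ad-FAM3A aortas lay, and the log2 fold change was -0.87 (standard error 0.22, edgeR unadjusted p = 0.001, adjusted p = 0.810). Adcy3, an adenylyl cyclase, had -0.55 (0.16), and Abhd5, the activator of adipose triglyceride lipase, -0.72 (0.21). Adrb3 (slope 0.77, edgeR adjusted p = 0.032), Pnpla2 (0.85, 0.040) and Mgll (0.64, 0.040) rose with the adipocyte score. With the score as a covariate the median of the 13 was -0.11, Adrb3 was at -0.37 and Adcy3 at -0.47.

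The 6 markers of sympathetic neurons, whose cell bodies lie in ganglia outside the vessel wall, varied far more than the set, with sums of 3.72 to 1149 CPM in Ad-sham and of 24.2 to 1120 CPM in Ad-FAM3A aortas. Tyrosine hydroxylase (Th) had 0.13 CPM in Ad-sham4 and 274 CPM in Ad-sham5, the pair of Ad-sham aortas with 578 and 279 CPM of Ucp1. Beside the high values of Ucp1 in Ad-sham1 to Ad-sham3, Th had 93.4, 3.94 and 217 CPM, all above the level that a count of 0 allows. All 6 had a negative log2 fold change (median -0.68, and -1.55 with the score as a covariate), where 49.6% of all genes did, and none was at an unadjusted p under 0.05. The part of these cells in the results was not tested.

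For the lists that follow, the shares over all genes tested were 49.6% lower and, at an unadjusted p under 0.05, 2.93% lower and 5.91% in either direction. Of 14 transcription factors and cofactors of brown fat, 12 were lower (median -0.25), with Cebpa (-0.79, standard error 0.30), a factor of adipocyte differentiation, the only one at an unadjusted p under 0.05. Esrra, a nuclear receptor of mitochondrial genes, rose with the score (slope 1.14, standard error 0.20, edgeR adjusted p = 0.026). The median with the score as a covariate was -0.05. Bmp7 and Tfam were not lower (0.11 and 0.0012). Among 4 tested thyroid hormone genes beside Dio2, 3 were lower (median -0.27, but 0.18 with the score as a covariate), and Thrsp, a target of the hormone, had a slope of 1.70 (edgeR adjusted p = 0.041). Of 8 genes of heat production without Ucp1, 4 were lower and 4 higher. Ucp3 had -1.06 (standard error 0.33) and glycerol kinase (Gk), whose product feeds a lipid cycle, -0.46 (0.19), while creatine kinase B (Ckb) was at 0.03 (0.27) and the calcium pump Atp2a2 at 0.11 (0.19). Of 4 tested secreted factors, 3 were lower (median -0.40, but 0.18 with the score as a covariate), Angptl4 at -0.55 (0.25), and Nrg4, released by brown fat, at -0.52 (0.26).

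Markers that distinguish kinds of fat were read against the same shares of all genes, 49.6% lower and 5.91% at an unadjusted p under 0.05 in either direction. Of 8 white fat genes, 7 were lower (median -0.37, and -0.0091 with the score as a covariate), with Hoxc9 at -1.18 (standard error 0.52, unadjusted p = 0.041), and Retn, the gene of resistin, rose with the score (slope 1.23, edgeR adjusted p = 0.044). Lep, the gene of leptin, was at -0.03 (0.96). Of 5 beige fat genes, 4 were tested and 3 were higher (median 0.67, but -0.08 with the score as a covariate), with Tmem26 at 1.25 (0.48, unadjusted p = 0.021), on levels of 2.10 CPM in Ad-sham and 5.02 CPM in Ad-FAM3A aortas. Tmem26 and Tnfrsf9, the latter also expressed by activated T cells, were both highest in Ad-FAM3A6 (9.11 and 8.74 CPM), where 3 T cell genes summed to 109 CPM, against 2.06 to 27.1 CPM in the other 12 aortas, and the part of these cells was not tested. Among other fatty acid binding proteins, Fabp4, the abundant form of adipocytes, rose with the score (slope 1.22, edgeR adjusted p = 0.043) and was at -0.75 (0.36). All 5 smooth muscle genes had a positive log2 fold change (median 0.24), none at an unadjusted p under 0.05, and all 4 B cell genes were higher at that level (median 2.26), with sums of 9.45 to 38.8 CPM in Ad-sham and of 536 and 207 CPM in Ad-FAM3A6 and Ad-FAM3A7 but 5.01 to 26.1 CPM in the other 5 Ad-FAM3A aortas. Of the fibroblast genes, Lum fell with the score (slope -1.45, edgeR adjusted p = 0.036).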

How the data were processed

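RNA from 13 aortas, each 1 library, was analysed. Per the study's methods, the authors aligned reads to GRCm38 with Hisat2 and counted them per gene with FeatureCounts. The deposited counts are whole numbers with a different total in each aorta, and were read as counts without normalization. The strand setting and annotation release are not given in the sources used here, so counts of genes with overlapping exons are uncertain. A mean FPKM per group, also deposited, enters no test. Labels and methods name different extraction and library kits. Column names gave the sample of every count column (0 unmapped). The labels name no batch.

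Genes were kept by filterByExpr, normalized by TMM and compared by edgeR 4.0.16's quasi-likelihood test in R 4.3.3, with Benjamini-Hochberg adjustment over 15811 genes and an adjusted p threshold of 0.05. Log2 CPM used a prior count of 2, and each standard error is the size of the log2 change over the root of F. Single values were compared by exact permutation of the 13 labels. limma 3.58.1 (voom) and DESeq2 1.42.0, other scalings and filters, a replicate block, other scores and leaving out each aorta were the alternatives. On simulated counts, 150 of 200 genes changed by a log2 size of 2 were recovered (75%), and 2 of the 152 calls were unchanged genes. Promoters came from RefSeq, and exon overlaps from GENCODE vM21. The genes and lists were chosen with earlier results of these data known, and counts of genes lower under each alternative were added after seeing the data. The named genes are the 10, the listed genes that passed a test or had an extreme value in their list, the 10 genes most like Ucp1 and Fam3a; further list genes were named after their values were seen, and some results are not reported here.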

Additional observations from a re-analysis of the deposited data

Results flagged for a closer look

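Of 38 groups of values examined, 3 held an aorta set far apart from the rest of its group by Dixon's test, where chance gives about 1 in 20. Relative to the adipocyte score, Ucp1 in Ad-sham5 was at 0.049 on the log2 scale, against 1.31 to 1.99 in the other 5 Ad-sham aortas. Cidea relative to the score was at 1.71 in Ad-FAM3A2, against -0.28 to 0.43 in the rest of the Ad-FAM3A group. Fabp3 relative to the score was at -0.56 in Ad-FAM3A2, against -4.03 to -2.55 in the other 6. The cause was not tested.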

How the results depend on the processing

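The log2 fold changes of Ucp1, Otop1, Elovl3, Ebf2 and Ppargc1a stayed negative in all 22 alternatives. DESeq2 called 3 genes in place of 0. The 934 genes at an unadjusted p under 0.05 became 2269 without a filter, 620 with a replicate block, 427 with the score as a covariate and 491 (without Ad-sham3) to 1345 (without Ad-FAM3A2) when 1 aorta was left out. The 4 genes of the set lower at that level became 2 with voom, 2 with the block, 0 with the covariate and 2 to 5 without single aortas. The 232 genes with a slope on the score became 103 without a filter, 530 with at least 10 counts in every aorta, 1016 with DESeq2, 0 with the block, 771 without the group term, 833 with Adipoq alone as the score, and 0 (without Ad-sham2, Ad-sham3, Ad-sham4 or Ad-sham6) to 554 (without Ad-FAM3A2). The score's difference ran from -0.70 (without Ad-sham4) to -0.45 (without Ad-sham3).

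Signs changed for Cidea's fold change with the covariate (0.75), Prdm16's with voom (-0.15) and the block (-0.065), and Fabp3's with voom (-0.26) and the block (-0.31). Without single aortas the fold changes ran from -0.40 to 0.10 for Dio2, -0.26 to 0.20 for Prdm16 and -0.65 to 0.45 for Fabp3. The slope of Dio2 was -0.055 with library totals, -0.21 with the block, -0.13 with Adipoq alone and -0.16 to 0.42 without single aortas. That of Prdm16 was -0.059 with the upper quartile, -0.052 with library totals, -0.054 with at least 10 counts, -0.0092 without the group term, -0.41 with Adipoq alone and -0.23 to 0.20 without single aortas, and that of Ppargc1a was -0.012 to 0.28. Relative to the score, single aortas moved Cidea from -0.074 to 0.34, Ebf2 from -0.023 to 0.18 and Fabp3 from -0.075 to 0.50. The cause was not tested. The labels do not say whether the replicate numbers pair the aortas. Deviations from the group means of same-numbered aortas had r from -0.33 to 0.45, with 1 of 6 best with its own number. These values do not settle whether the numbers pair the aortas.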
